A study of Mus musculus with 7 samples.

Results

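Mitosis and spindle genes are the genes whose products condense the chromosomes, build the spindle, hold or release the sister chromatids and cut the cell apart. The set held 46 genes named by function, from Cdk1 and Plk1 to the condensins and Mki67. Of these, 44 had a probe set assigned to a single gene, out of 12393 genes with such a probe set on the array, and Ccnb1 and Cdca8 had none. Where a gene had several probe sets, the one with the highest mean signal over the 7 arrays was counted. The counted probe sets of Aurkb, Bub3, Incenp, Kif22, Ncaph, Prc1 and Pttg1 are of design classes that can bind related transcripts. All 44 passed the filter on low signals, which asks for a mean of 99.67, the 40th percentile of all signals, in at least 1 group. Cdc25c alone of the 44 did not reach it in every group, being below it on the syngeneic array.

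The arrays came from a study of the costimulatory pair ICOS and ICOSL in acute graft-versus-host disease, in which donor T cells attack the tissues of the recipient. All recipients were female C57BL/6 (B6) mice, aged 9 to 12 weeks, that received 10.0 Gy and, 4 to 6 h later, donor splenocytes depleted of red blood cells. The syngeneic group (1 array) received B6 splenocytes and, per the labels, no antibody is named for it. The 3 allogeneic groups (2 arrays each) received splenocytes of C3H mice, a strain with another MHC, together with an isotype control antibody, with anti-ICOSL antibody started on day 0, or with anti-ICOSL antibody started on day 3. Antibody was given as 500 µg at first and 200 µg every other day afterwards, and spleen cells were taken on day 4. The labels do not give the start day of the isotype antibody. Under a day 3 start, the spleens were thus taken 1 day after the first dose. RNA of allogeneic mice was combined and put on both arrays of a group, so p-values here cover the array-to-array spread alone, which can be technical. In any comparison with the syngeneic array, effects of the donor strain, of the allogeneic response and of giving an antibody cannot be told apart. Antibody is named for the allogeneic groups alone.

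In a dividing cell the kinase Cdk1, bound to cyclins A and B, opens mitosis, and polo-like and aurora kinases carry it on through centrosome maturation, spindle assembly and chromosome attachment. The spindle assembly checkpoint holds the anaphase-promoting complex inactive until every kinetochore is attached. Once it is released, securin and cyclin B are degraded, separase cuts cohesin and cytokinesis follows. Many of these genes are transcribed late in the cell cycle, when the repressive DREAM complex gives way to B-Myb and FoxM1, and in a lymphoid organ their transcripts are textbook markers of dividing cells.

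The deposited MAS5 signals had 2% trimmed means of 500.18 to 500.19 on the 7 arrays and array medians of 145.3 to 174.3. Of the 4 leukocyte markers, checked because the samples are labelled splenocytes, Ptprc had a signal of 14571 on the syngeneic array and 12179 to 14459.9 on the 6 allogeneic arrays, Coro1a of 12734 on the syngeneic array and 13188 to 16393 on the 6 allogeneic arrays, Laptm5 of 9849 on the syngeneic array and 6749.7 to 9933 on the 6 allogeneic arrays and Cd74 of 20717 on the syngeneic array and 10103 to 15034 on the 6 allogeneic arrays. Of these Cd74 fell in day 0 recipients, by -0.95 (limma adjusted p = 0.046). For RNA integrity, the Gapdh control signal at the 3' end over that at the 5' end was 0.957 on the syngeneic array and 0.767 to 0.865 on the allogeneic arrays, while that of Actb was 0.967 to 1.028 on all 7. The syngeneic array therefore stood apart in the Gapdh ratio, and its part in the differences below was not tested.

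Mitosis and spindle genes stood higher in every allogeneic group than on the syngeneic array. In isotype recipients all 44 had a log2 change above 0, against 49.3% of all 15372 tested probe sets, and the median change was 0.76 against -0.01 over all probe sets. These changes are differences of log2(signal + 50), so those of genes with low signal are understated. In day 0 recipients 43 were above the syngeneic array with a median of 0.88 (0.01 over all, where 51.0% were above), and in day 3 recipients 42 with a median of 0.87 (0.03 over all, where 52.3% were above). The summed signal of the 44 probe sets was 52768 in the syngeneic group, 94693 and 97686 with isotype antibody, 100597 and 98544 with anti-ICOSL from day 0, and 100662 and 98320 from day 3. All 6 allogeneic arrays thus lay close to one another and far above the syngeneic array. Within these sums Pttg1 alone gave 5584 on the syngeneic array and 14998 to 20758 on the allogeneic arrays. Its counted probe set can share sequence with other transcripts by its design class. Gene by gene, 40 of 44 (90.9%) were above the syngeneic array on all 6 allogeneic arrays, against 26.0% of all tested probe sets, and none was below it on all 6, against 26.4%. The 4 genes outside the 40 were Ndc80, Kif23, Smc4 and Ncapd2. These counts describe these arrays, and all of them rest on the same single syngeneic array. Cdc25c is counted among the higher genes but reached the filter in the allogeneic groups alone, so its place there supports no rise.

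**Figure D1:**
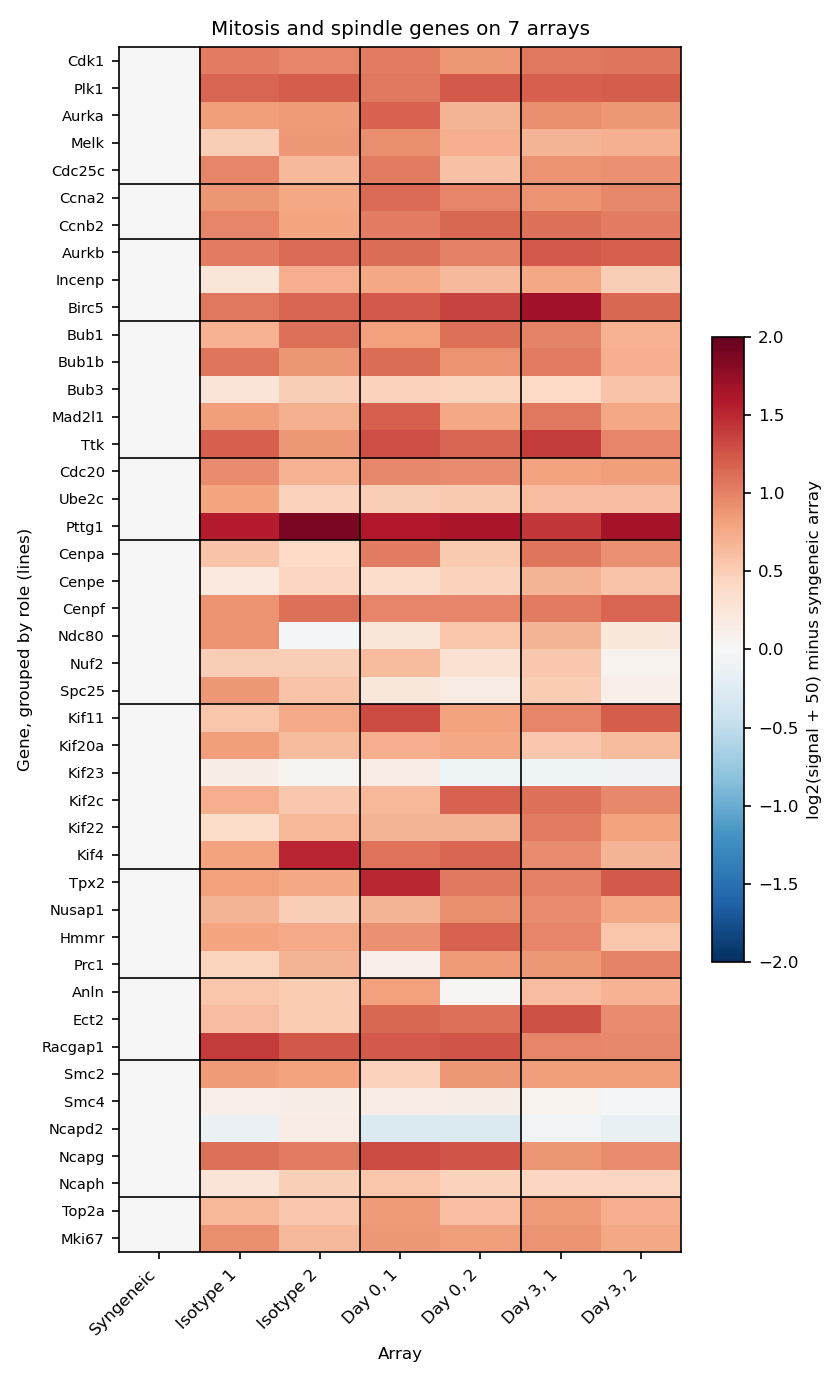
Difference of log2(signal + 50) from the syngeneic array (colour) for 44 mitosis and spindle genes (rows, in blocks by role) on the syngeneic array and the 6 allogeneic arrays (columns). Of the 44 rows, 40 are above the syngeneic array in all 6 allogeneic columns, and the pale rows are Smc4, Ncapd2 and Kif23.

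Single genes were tested with limma in 1 fit over all 7 arrays, with p-values adjusted by Benjamini and Hochberg over all tested probe sets and a threshold of 0.05. From here on, a gene is said to rise or fall only where it passed this threshold. In isotype against syngeneic 7 of 44 rose (15.9%), against 6.62% of all tested probe sets called in either direction and 2.49% called higher, and none fell. In day 0 against syngeneic 14 rose (31.8%), against 7.03% in either direction and 2.8% higher, and in day 3 against syngeneic 11 rose (25.0%), against 7.21% in either direction and 2.89% higher. The 3 comparisons share the syngeneic array and are not independent of one another. Cdk1, Plk1, Aurkb, Pttg1, Cenpf, Racgap1 and Ncapg passed in all 3, Ccna2, Ccnb2, Birc5 and Ect2 in 2, Ttk, Cdc20 and Tpx2 in day 0 recipients alone of the 3, and 30 genes in none. At an unadjusted p under 0.05, 29 of 44 (65.9%) were higher in isotype recipients, against 10.0% of all tested probe sets. The counts moved with the processing, since a limma fit with trend and robust options called 23 genes in isotype recipients. Of the 7 called there, Cdk1, Aurkb, Cenpf and Ncapg lost their call without any 1 of the 6 allogeneic arrays. Only Pttg1 kept its call in isotype recipients under every alternative. Without the first or the second day 0 array none passed in day 0 recipients, and without the first or the second day 3 array 0 and 1 passed in day 3 recipients. Over 14 alternatives a single call was kept in 5 to 14 in isotype, 4 to 12 in day 0 and 3 to 11 in day 3 recipients.

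**Figure D2:**
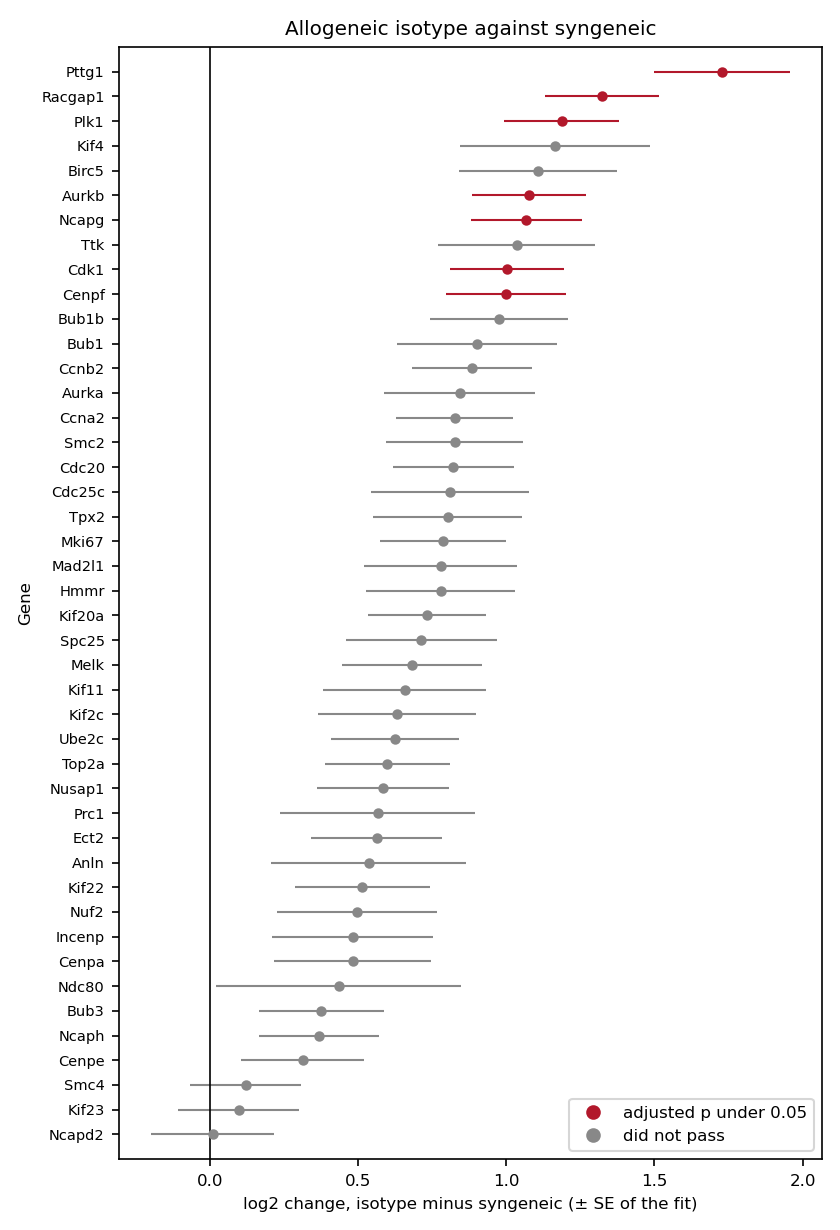
Log2 change of 44 mitosis and spindle genes in isotype recipients (2 arrays) against the syngeneic array (1 array), with the SE of the limma fit as bars and genes ordered by size. Red points mark the 7 genes with an adjusted p under 0.05, led by Pttg1 at 1.73, and all 44 points lie above 0.

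Because the members moved together, the promoters of the set were read from RefSeq (GRCm38.p6), in windows of 250 bases before to 50 after a gene's start. There were 42 windows for 39 members, with 2 overlapping windows each for Bub3, Ect2 and Prc1, and 7 members had no entry. The 7 were Aurkb, Ccna2, Cdc25c, Incenp, Kif20a, Smc4 and Tpx2. Late cell-cycle promoters are known for CCAAT boxes, bound by NF-Y, and for the cell cycle genes homology region, a TTTGAA or TTCGAA motif bound by DREAM and MuvB complexes. Below are the 120 bases before the start of 4 members that passed in at least 1 comparison and hold such motifs, and of Pttg1, which changed most and has none in its window, with every match to the CCAAT box or to the homology motif, on either strand, in capitals (ATTGG is the box read on the other strand).
Cdk1, chr10:69352913-69353032 (reverse strand): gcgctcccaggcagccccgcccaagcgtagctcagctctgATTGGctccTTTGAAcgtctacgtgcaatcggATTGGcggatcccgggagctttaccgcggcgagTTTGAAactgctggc
Cdc20, chr4:118437344-118437463 (reverse strand): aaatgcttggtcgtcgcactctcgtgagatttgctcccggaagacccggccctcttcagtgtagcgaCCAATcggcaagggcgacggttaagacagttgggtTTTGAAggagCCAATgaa
Ncapg, chr5:45669805-45669924 (forward strand): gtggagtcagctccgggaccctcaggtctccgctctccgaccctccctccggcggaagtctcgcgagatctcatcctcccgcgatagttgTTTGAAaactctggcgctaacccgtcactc
Ccnb2, chr9:70421555-70421674 (reverse strand): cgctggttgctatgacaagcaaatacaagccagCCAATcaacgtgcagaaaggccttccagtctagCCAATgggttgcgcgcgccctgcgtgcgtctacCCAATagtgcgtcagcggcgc
Pttg1, chr11:43425982-43426101 (reverse strand): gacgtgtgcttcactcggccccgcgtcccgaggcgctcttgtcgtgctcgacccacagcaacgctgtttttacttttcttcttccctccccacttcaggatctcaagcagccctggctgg
In the Cdk1 stretch CCAAT and TTTGAA alternate, with both TTTGAA matches downstream of a CCAAT box. Cdc20 has a TTTGAA between its CCAAT boxes, Ccnb2 has 3 CCAAT boxes at even spacing, and Ncapg has a lone TTTGAA in this stretch.

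Of the 42 windows, 32 (76.2%) held CCAAT on either strand, against 37.4% of 32851 RefSeq windows of the same length, and 22 (52.4%) held at least 2, against 11.7%. TTTGAA on either strand was in 32 (76.2%), against 17.9%, and TTCGAA, which reads the same on both strands, in 3 (7.14%), against 1.56%. CCAAT together with TTTGAA or TTCGAA was in 30 (71.4%), against 7.52%. The member windows were richer in G and C than the rest, with a median of 59.0% against 52.7%. Of 73 CCAAT matches, 46 started in the 100 bases before the gene's start, with a median first base of -74. TTTGAA matches (41) had a median first base of -15, with 19 starting after the start. A match shared by the overlapping windows of Bub3, Ect2 or Prc1 is counted in each window. The median change in isotype recipients was 0.78 over 29 tested genes with a window and TTTGAA or TTCGAA (5 called) and 0.63 over 8 without (1 called), with overlapping ranges of 0.01 to 1.32 and 0.31 to 1.73. A match is a description of the letters in the window and was not tested as a binding site.

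**Figure D3:**
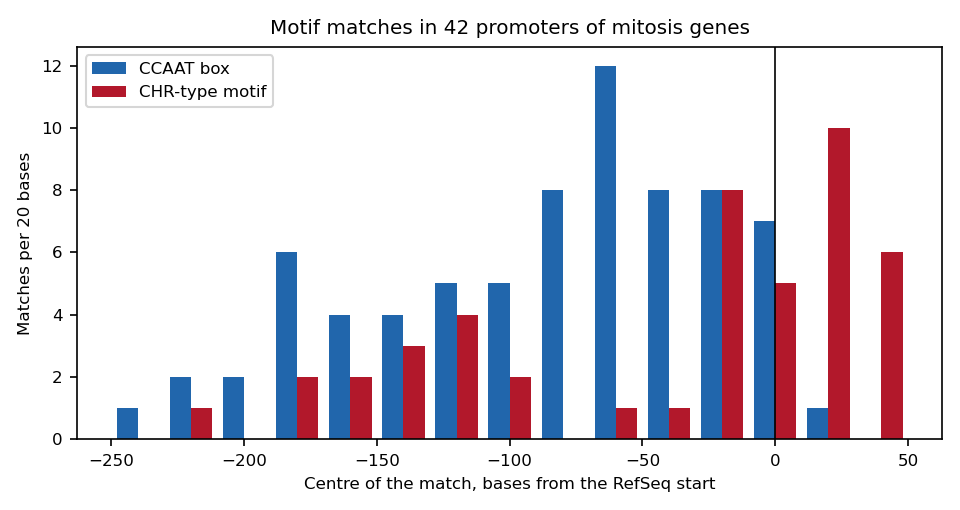
Number of matches per 20 bases (y axis) to CCAAT and to TTTGAA or TTCGAA, on either strand, by the distance of the match centre from the RefSeq start in bases (x axis), in 42 promoter windows of mitosis and spindle genes. CCAAT matches gather in the 100 bases before the start (46 of 73 start there), and TTTGAA matches lie closer to the start (median first base -15). A match shared by the overlapping windows of Bub3, Ect2 or Prc1 is counted in each window.

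Among the mitotic kinases, Plk1 and Cdk1 rose in all 3 allogeneic groups. Plk1, the polo-like kinase, drives centrosome maturation, bipolar spindle assembly and mitotic exit. Plk1 had a signal of 1174 in the syngeneic group, 2705 and 2769 with isotype antibody, 2497 and 2819 with anti-ICOSL from day 0, and 2766 and 2795 with anti-ICOSL from day 3. The 6 allogeneic values lay in a narrow band well above the syngeneic one, and the allogeneic groups overlapped. Plk1 differed from the syngeneic array by 1.19 (log2) in isotype, 1.14 in day 0 and 1.21 in day 3 recipients, each ± 0.19 (SE), with limma adjusted p of 0.0211, 0.0231 and 0.0204. Cdk1 is the cyclin-dependent kinase of mitotic entry. Cdk1 had a signal of 1757 in the syngeneic group, 3629 and 3513 with isotype antibody, 3609.8 and 3258 with anti-ICOSL from day 0, and 3720.2 and 3734 with anti-ICOSL from day 3. The isotype and day 0 arrays overlapped, both day 3 arrays lay slightly above them, and the syngeneic array was far below. Cdk1 differed from the syngeneic array by 1.00 (log2) in isotype, 0.95 in day 0 and 1.06 in day 3 recipients, each ± 0.19 (SE), with limma adjusted p of 0.0335, 0.0385 and 0.029. Aurka, the aurora kinase of the centrosome, Melk, a kinase of dividing cells, and Cdc25c, a phosphatase that activates Cdk1, had changes of 0.84, 0.68 and 0.81 in isotype recipients and did not pass in any comparison. Both calls in isotype recipients depended on the setting, since over 14 alternatives the adjusted p ran from 0.000368 to 0.0732 for Plk1 and from 0.000799 to 0.104 for Cdk1, which lost its call without any 1 of the 6 allogeneic arrays.

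The mitotic cyclins Ccna2 and Ccnb2, the activating partners of the cyclin-dependent kinases, rose in both anti-ICOSL groups and narrowly missed the threshold in isotype recipients. Ccnb2 had a signal of 1275 in the syngeneic group, 2555 and 2249 with isotype antibody, 2648 and 2896 with anti-ICOSL from day 0, and 2788 and 2635 with anti-ICOSL from day 3. All 4 anti-ICOSL arrays were above both isotype arrays, and all 6 were far above the syngeneic array. Ccnb2 differed from the syngeneic array by 0.89 (log2) in isotype, 1.09 in day 0 and 1.06 in day 3 recipients, each ± 0.20 (SE), with limma adjusted p of 0.0564, 0.0297 and 0.0336. Ccna2 had a signal of 2602 in the syngeneic group, 4825 and 4482 with isotype antibody, 5743 and 5147 with anti-ICOSL from day 0, and 4919 and 5111 with anti-ICOSL from day 3. The groups did not overlap and stood in the order syngeneic, isotype, day 3 and day 0, although the steps between the allogeneic groups were small. Ccna2 differed from the syngeneic array by 0.83 (log2) in isotype, 1.05 in day 0 and 0.93 in day 3 recipients, each ± 0.20 (SE), with limma adjusted p of 0.0632, 0.0309 and 0.0435. A further probe set of Ccna2 changed by 0.49, 0.41 and 0.46 and did not pass (adjusted p = 0.313, 0.382 and 0.313), with day 0 lowest of the allogeneic groups, so the size of the rise and the order depended on the probe set. The call of Ccna2 was kept in 8 of 14 alternatives in day 0 and in 3 in day 3 recipients (adjusted p up to 0.115 and 0.166), and that of Ccnb2 in 9 and 7.

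In the chromosomal passenger complex, which corrects faulty kinetochore attachments and later marks the cleavage site, Aurkb rose in all 3 groups and Birc5 in both anti-ICOSL groups. Aurkb is its kinase. Aurkb had a signal of 421 in the syngeneic group, 904 and 988 with isotype antibody, 971 and 902 with anti-ICOSL from day 0, and 1053 and 1025 with anti-ICOSL from day 3. The isotype and day 0 arrays overlapped, and both day 3 arrays lay a little above them. Aurkb differed from the syngeneic array by 1.08 (log2) in isotype, 1.07 in day 0 and 1.21 in day 3 recipients, each ± 0.19 (SE), with limma adjusted p of 0.0273, 0.0279 and 0.0201. Birc5 (survivin) is its small targeting subunit. Birc5 had a signal of 1492 in the syngeneic group, 3143 and 3409 with isotype antibody, 3541 and 3877 with anti-ICOSL from day 0, and 4886 and 3364 with anti-ICOSL from day 3. The first day 3 array was the highest and the other day 3 array lay between the isotype arrays, so day 3 and isotype overlapped. Birc5 differed from the syngeneic array by 1.11 (log2) in isotype, 1.28 in day 0 and 1.41 in day 3 recipients, each ± 0.27 (SE), with limma adjusted p of 0.0647, 0.0411 and 0.033. Incenp, the scaffold, had 1581 on the syngeneic array and 1875 to 2749 on the 6 allogeneic arrays, with a change of 0.48 in isotype recipients that did not pass (limma adjusted p = 0.352). The call of Aurkb in isotype recipients ended without any 1 of the 6 allogeneic arrays, with adjusted p of 0.00327 to 0.0907 over 14 alternatives. The counted probe set of Aurkb is of a design class that can bind related transcripts. A further tested probe set changed by 0.68 in isotype, 0.88 in day 0 and 1.07 in day 3 recipients. It passed in day 3 recipients alone (limma adjusted p = 0.115, 0.0586 and 0.035).

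The spindle assembly checkpoint genes were all above the syngeneic array in each allogeneic group, but of the 5 only Ttk passed, in day 0 recipients. Ttk (Mps1) is the kinase that starts the checkpoint at unattached kinetochores. Ttk had a signal of 274 in the syngeneic group, 696 and 542 with isotype antibody, 742 and 676 with anti-ICOSL from day 0, and 807 and 588 with anti-ICOSL from day 3. Values of the 3 allogeneic groups overlapped, and all 6 values were far above the syngeneic one. Ttk differed from the syngeneic array by 1.04 (log2) in isotype, 1.23 in day 0 and 1.19 in day 3 recipients, each ± 0.27 (SE), with limma adjusted p of 0.0768, 0.0468 and 0.0503. Bub1b (BubR1) is part of the complex that inhibits Cdc20. Bub1b had a signal of 649.7 in the syngeneic group, 1417 and 1241 with isotype antibody, 1461 and 1254 with anti-ICOSL from day 0, and 1391 and 1112 with anti-ICOSL from day 3. The allogeneic groups overlapped here too. Bub1b differed from the syngeneic array by 0.98 (log2) in isotype, 1.01 in day 0 and 0.89 in day 3 recipients, each ± 0.23 (SE), with limma adjusted p of 0.0643, 0.0578 and 0.0764. Bub1, Mad2l1 and Bub3, further checkpoint proteins, changed by 0.90, 0.78 and 0.38 in isotype recipients without passing. For Bub3, of its 2 further tested probe sets 1 was 0.16 and the other -0.09, so its direction depended on the probe set.

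Pttg1 (securin), the inhibitor of separase that is destroyed at anaphase, had the largest change of the 44 in all 3 comparisons with the syngeneic array. Pttg1 had a signal of 5584 in the syngeneic group, 16689 and 20758 with isotype antibody, 16973 and 17447 with anti-ICOSL from day 0, and 14998 and 17724 with anti-ICOSL from day 3. The allogeneic groups overlapped, and their lowest value was more than 2 times the syngeneic one. Pttg1 differed from the syngeneic array by 1.73 (log2) in isotype, 1.62 in day 0 and 1.54 in day 3 recipients, each ± 0.23 (SE), with limma adjusted p of 0.0116, 0.0144 and 0.0169. The fold over syngeneic was 3.31 in isotype recipients. Its call in isotype recipients held under all 14 alternatives, with adjusted p from 1.54e-05 to 0.0465, in day 0 recipients under 12 (up to 0.0732, without either day 0 array) and in day 3 recipients under 11 (up to 0.081, lost without either day 3 array and in a fit to the compared groups alone). The counted probe set can share sequence with other transcripts by its design class, and the other 2 probe sets of Pttg1 changed by 1.20 and 0.62 (adjusted p = 0.099 and 0.307), so the size of the rise depended on the probe set. Cdc20, the activator of the anaphase-promoting complex, passed with its counted probe set in day 0 recipients alone. Cdc20 had a signal of 1643 in the syngeneic group, 3213 and 2694 with isotype antibody, 3250.1 and 3205 with anti-ICOSL from day 0, and 2914 and 2971 with anti-ICOSL from day 3. Isotype overlapped both other allogeneic groups, and day 0 lay above day 3. Cdc20 differed from the syngeneic array by 0.82 (log2) in isotype, 0.95 in day 0 and 0.82 in day 3 recipients, each ± 0.20 (SE), with limma adjusted p of 0.0701, 0.0453 and 0.0656. A further probe set of Cdc20 changed by 1.06 in isotype, 1.10 in day 0 and 1.045 in day 3 recipients. It passed in all 3 comparisons (limma adjusted p = 0.0329, 0.0285 and 0.035), so the limit to day 0 depended on the probe set. Ube2c, the ubiquitin-conjugating enzyme of that complex, had 2219.6 on the syngeneic array and 3083 to 3861 on the 6 allogeneic arrays and a change of 0.63 in isotype recipients that did not pass (adjusted p = 0.152).

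**Figure D4:**
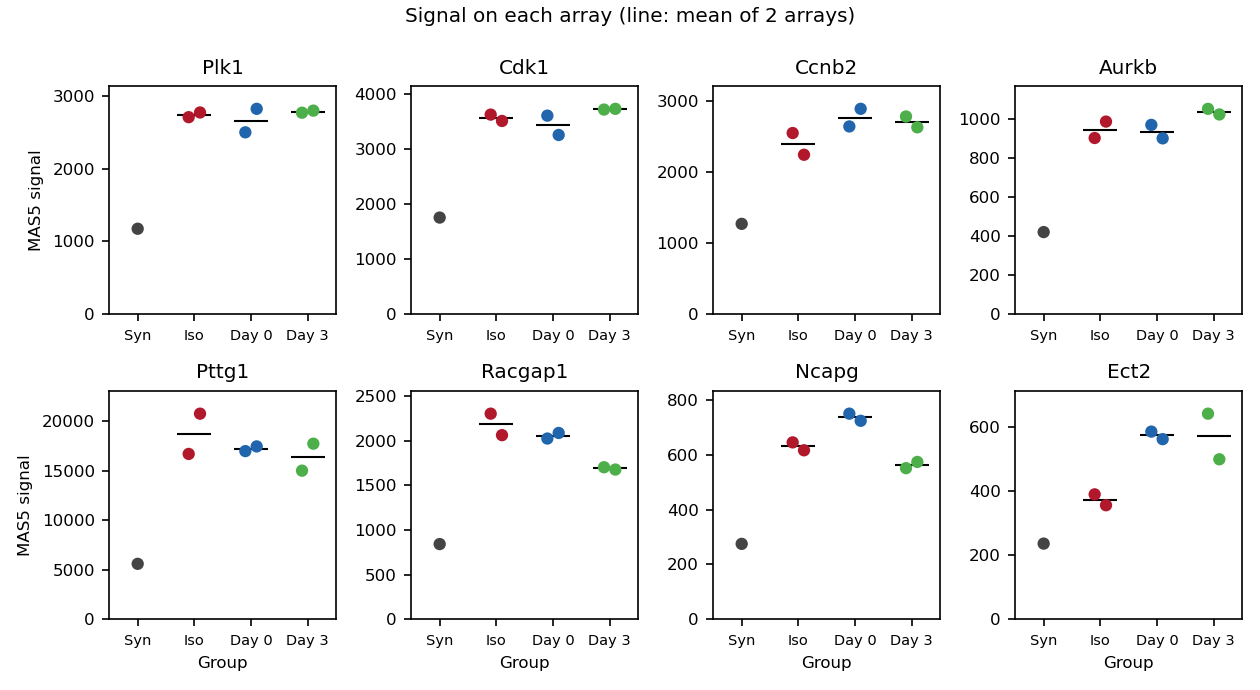
MAS5 signal (y axis, linear, from 0) of 8 mitosis and spindle genes on each array by group (x axis), with 1 syngeneic array and 2 arrays in each allogeneic group; lines are group means. Each gene is lowest on the syngeneic array, and Ect2, Ncapg and Racgap1 show the widest gaps among the allogeneic groups.

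All 6 centromere and kinetochore genes had changes above 0 in each comparison with the syngeneic array, but only Cenpf passed. Cenpf is a large protein of the outer kinetochore that accumulates late in the cell cycle. Cenpf had a signal of 594 in the syngeneic group, 1151 and 1331 with isotype antibody, 1213 and 1221 with anti-ICOSL from day 0, and 1271 and 1394 with anti-ICOSL from day 3. The isotype arrays bracketed both day 0 arrays, and day 3 overlapped isotype. Cenpf differed from the syngeneic array by 1.00 (log2) in isotype, 0.98 in day 0 and 1.10 in day 3 recipients, each ± 0.20 (SE), with limma adjusted p of 0.0389, 0.0408 and 0.0305. For Cenpf the further probe set was at 0.66, 0.51 and 0.69 without passing. Over 14 alternatives its adjusted p in isotype recipients ran from 0.00429 to 0.115, and leaving out any 1 allogeneic array ended the call. Spc25, a subunit of the Ndc80 complex that grips microtubules, did not pass in any comparison. Spc25 had a signal of 559 in the syngeneic group, 1055 and 851 with isotype antibody, 652 and 622 with anti-ICOSL from day 0, and 814 and 601 with anti-ICOSL from day 3. Both isotype arrays were above all 4 anti-ICOSL arrays. Spc25 differed from the syngeneic array by 0.71 (log2) in isotype, 0.17 in day 0 and 0.30 in day 3 recipients, each ± 0.25 (SE), with limma adjusted p of 0.162, 0.737 and 0.507. For Spc25 the further probe set was at 0.83, 1.20 and 1.07 (adjusted p = 0.144, 0.0565 and 0.0728), with isotype lowest of the allogeneic groups. Cenpa, the histone variant that marks the centromere, had its lowest allogeneic mean in isotype recipients. Cenpa had a signal of 1366 in the syngeneic group, 2055 and 1807 with isotype antibody, 2830.2 and 1994 with anti-ICOSL from day 0, and 2935 and 2618 with anti-ICOSL from day 3. Both day 3 arrays were above both isotype arrays, and the day 0 arrays overlapped both groups. Cenpa differed from the syngeneic array by 0.48 (log2) in isotype, 0.78 in day 0 and 1.00 in day 3 recipients, each ± 0.26 (SE), with limma adjusted p of 0.34, 0.143 and 0.0778. Nuf2 and Cenpe changed by 0.50 and 0.31 in isotype recipients without passing. Ndc80 had a signal of 449 on 1 isotype array and 215 on the other, which is below the 219 of the syngeneic array, the widest gap between isotype arrays of any of the 44 (0.91 on the log2 scale).

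None of the 6 kinesin motors passed in any comparison, although 5 of them were above the syngeneic array on all 6 allogeneic arrays. Kif4 is a chromosome-bound motor of the spindle midzone. Kif4 had a signal of 287 in the syngeneic group, 541 and 916 with isotype antibody, 667 and 708 with anti-ICOSL from day 0, and 599.9 and 489 with anti-ICOSL from day 3. The isotype arrays were far apart and overlapped both other groups, while day 3 lay below day 0. Kif4 differed from the syngeneic array by 1.17 (log2) in isotype, 1.13 in day 0 and 0.81 in day 3 recipients, each ± 0.32 (SE), with limma adjusted p of 0.0917, 0.0928 and 0.184. Kif20a (MKLP2) moves the passenger complex to the midzone. Kif20a had a signal of 274 in the syngeneic group, 526 and 455 with isotype antibody, 489 and 506 with anti-ICOSL from day 0, and 422 and 451 with anti-ICOSL from day 3. Both day 3 arrays were below the other 4 allogeneic arrays, by a small margin. Kif20a differed from the syngeneic array by 0.73 (log2) in isotype, 0.76 in day 0 and 0.58 in day 3 recipients, each ± 0.20 (SE), with limma adjusted p of 0.0884, 0.077 and 0.136. Kif11 (Eg5) slides antiparallel microtubules and pushes the spindle poles apart. Kif11 had a signal of 608 in the syngeneic group, 914 and 1069 with isotype antibody, 1579.8 and 1106 with anti-ICOSL from day 0, and 1243 and 1467 with anti-ICOSL from day 3. All 4 anti-ICOSL arrays were above both isotype arrays. Kif11 differed from the syngeneic array by 0.66 (log2) in isotype, 1.06 in day 0 and 1.09 in day 3 recipients, each ± 0.27 (SE), with limma adjusted p of 0.219, 0.0737 and 0.0672. Kif2c and Kif22 changed by 0.63 and 0.52 in isotype recipients, and Kif23 (MKLP1), with 740.1 on the syngeneic array and 696 to 828 on the 6 allogeneic arrays, by 0.10. A further probe set of Kif2c, a microtubule depolymerase, changed by 1.04 in isotype recipients and passed (limma adjusted p = 0.0288), unlike the counted one. It also passed in day 0 and day 3 recipients, as did a further probe set of Kif22 (1.10 and 0.99, adjusted p = 0.0304 and 0.0419).

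Among genes of spindle assembly and the midzone, Tpx2 rose in day 0 recipients. Tpx2 activates Aurka and nucleates spindle microtubules. Tpx2 had a signal of 660.3 in the syngeneic group, 1209 and 1170.2 with isotype antibody, 1967 and 1431 with anti-ICOSL from day 0, and 1378 and 1618 with anti-ICOSL from day 3. All 4 anti-ICOSL arrays were above both isotype arrays, and the first day 0 array was the highest. Tpx2 differed from the syngeneic array by 0.80 (log2) in isotype, 1.28 in day 0 and 1.12 in day 3 recipients, each ± 0.25 (SE), with limma adjusted p of 0.127, 0.0354 and 0.0517. Its call in day 0 recipients was kept in 6 of 14 alternatives and ended without any 1 of the 6 allogeneic arrays (adjusted p up to 0.112). The further probe set of Tpx2 changed by 0.34 in day 0 recipients, 0.24 in isotype and 0.19 in day 3 recipients and did not pass (adjusted p = 0.392, 0.559 and 0.621). Hmmr, a spindle-pole protein also known as a hyaluronan receptor, did not pass with the counted probe set. Hmmr had a signal of 690.1 in the syngeneic group, 1234 and 1207 with isotype antibody, 1342 and 1628 with anti-ICOSL from day 0, and 1404 and 1041 with anti-ICOSL from day 3. Both day 0 arrays were above both isotype arrays, and the day 3 arrays lay on either side of them. Hmmr differed from the syngeneic array by 0.78 (log2) in isotype, 1.05 in day 0 and 0.77 in day 3 recipients, each ± 0.25 (SE), with limma adjusted p of 0.133, 0.0617 and 0.126. Its 3 further probe sets passed in 1 comparison each, with 1.23 and 1.13 in day 0 recipients (adjusted p = 0.0443 and 0.0387) and 1.10 in day 3 recipients (0.0439). Prc1 bundles the antiparallel microtubules of the midzone. Prc1 had a signal of 1307 in the syngeneic group, 1806 and 2123 with isotype antibody, 1400.3 and 2397 with anti-ICOSL from day 0, and 2436 and 2643 with anti-ICOSL from day 3. The first day 0 array was close to the syngeneic one while the second was higher than both isotype arrays, and both day 3 arrays were above all others. Prc1 differed from the syngeneic array by 0.57 (log2) in isotype, 0.47 in day 0 and 0.93 in day 3 recipients, each ± 0.33 (SE), with limma adjusted p of 0.369, 0.442 and 0.148. A second probe set of Prc1 changed by 1.47 in isotype, 1.58 in day 0 and 1.23 in day 3 recipients. It passed in isotype and day 0 recipients (limma adjusted p = 0.0451, 0.0354 and 0.0693). With it day 3 was lowest of the allogeneic groups, so the order depended on the probe set. Nusap1, a microtubule-bundling protein, changed by 0.59 without passing.

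Of the 3 cytokinesis genes, Racgap1 rose in all 3 groups and Ect2 in both anti-ICOSL groups. Racgap1 is the GTPase-activating subunit of the centralspindlin complex, which recruits Ect2 to the midzone. Racgap1 had a signal of 842 in the syngeneic group, 2305 and 2064 with isotype antibody, 2026 and 2089 with anti-ICOSL from day 0, and 1704 and 1678 with anti-ICOSL from day 3. Both day 3 arrays were below the other 4 allogeneic arrays, and isotype and day 0 overlapped. Racgap1 differed from the syngeneic array by 1.32 (log2) in isotype, 1.24 in day 0 and 0.97 in day 3 recipients, each ± 0.19 (SE), with limma adjusted p of 0.0147, 0.0178 and 0.0383. Its call in isotype recipients was kept in 12 of 14 alternatives (adjusted p 0.000246 to 0.0603) and was lost without the first isotype array (0.0547) and in a fit to the compared groups alone (0.0603). Its call in day 0 recipients was kept in 12 and that in day 3 recipients in 4 of the 14, where it was lost without any 1 of the 6 allogeneic arrays (adjusted p up to 0.141). The further probe set of Racgap1 changed by 0.91, 0.81 and 1.00 in isotype, day 0 and day 3 recipients and did not pass (adjusted p = 0.0702, 0.0886 and 0.0522). Ect2 is the exchange factor that switches on RhoA at the cleavage site. Ect2 had a signal of 236 in the syngeneic group, 389 and 355 with isotype antibody, 585 and 562 with anti-ICOSL from day 0, and 641 and 499 with anti-ICOSL from day 3. All 4 anti-ICOSL arrays were above both isotype arrays, which were themselves above the syngeneic array. Ect2 differed from the syngeneic array by 0.56 (log2) in isotype, 1.13 in day 0 and 1.11 in day 3 recipients, each ± 0.22 (SE), with limma adjusted p of 0.198, 0.0354 and 0.0383. Its calls were kept in 7 of 14 alternatives in day 0 and 4 in day 3 recipients, and both ended without any 1 of the 6 allogeneic arrays. Anln, an actin-binding scaffold of the contractile ring, had 309 on the syngeneic array and 315 to 582 on the 6 allogeneic arrays, and its change of 0.54 in isotype recipients did not pass (adjusted p = 0.394).

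The condensins ranged in isotype recipients from 0.01 for Ncapd2 to 1.07 for Ncapg. Ncapg, a regulatory subunit of condensin I, rose in all 3 groups. Ncapg had a signal of 275 in the syngeneic group, 645 and 616 with isotype antibody, 750.2 and 724 with anti-ICOSL from day 0, and 551 and 574 with anti-ICOSL from day 3. The groups did not overlap and stood in the order syngeneic, day 3, isotype and day 0. Ncapg differed from the syngeneic array by 1.07 (log2) in isotype, 1.28 in day 0 and 0.92 in day 3 recipients, each ± 0.19 (SE), with limma adjusted p of 0.0257, 0.0155 and 0.0409. Its call in isotype recipients ended without any 1 of the 6 allogeneic arrays (adjusted p 0.00563 to 0.0902 over 14 alternatives), and so did that in day 3 recipients, which was kept in 5 of 14. A further probe set of Ncapg changed by 0.965 in isotype, 0.793 in day 0 and 0.973 in day 3 recipients. It passed in isotype and day 3 but not in day 0 recipients (limma adjusted p = 0.0386, 0.0653 and 0.0383). With it day 0 was lowest of the allogeneic groups, so the order and the day 0 call depended on the probe set. Smc2, a core ATPase shared by both condensins, did not pass. Smc2 had a signal of 1465 in the syngeneic group, 2689 and 2583 with isotype antibody, 2035 and 2708 with anti-ICOSL from day 0, and 2641 and 2651 with anti-ICOSL from day 3. The first day 0 array was low, and the allogeneic groups overlapped. Smc2 differed from the syngeneic array by 0.83 (log2) in isotype, 0.66 in day 0 and 0.83 in day 3 recipients, each ± 0.23 (SE), with limma adjusted p of 0.0956, 0.151 and 0.0867. Ncaph changed by 0.37, Smc4, the partner of Smc2, by 0.12 and Ncapd2 by 0.01 in isotype recipients. A further probe set of Ncaph passed in day 3 recipients (1.28, adjusted p = 0.0412). Smc4 had 3497 on the syngeneic array and 3434 to 3871 on the 6 allogeneic arrays, and its 2 further probe sets were at -0.18 and -0.14 in isotype recipients. Ncapd2 had 1284 on the syngeneic array and 1039 to 1422 on the 6 allogeneic arrays, and 5 of these 6 values were below the syngeneic one. Ncapd2 and Smc4 thus had the smallest changes of the condensin genes in isotype recipients, and Ncapg the largest.

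Top2a, which untangles sister chromatids, and Mki67, which coats mitotic chromosomes and is the usual marker of dividing cells, did not pass in any comparison. Mki67 had a signal of 2672 in the syngeneic group, 5108 and 4229 with isotype antibody, 4893 and 4786 with anti-ICOSL from day 0, and 5050.1 and 4619.9 with anti-ICOSL from day 3. The allogeneic groups overlapped, and all 6 values were far above the syngeneic one. Mki67 differed from the syngeneic array by 0.79 (log2) in isotype, 0.85 in day 0 and 0.84 in day 3 recipients, each ± 0.21 (SE), with limma adjusted p of 0.086, 0.0688 and 0.067. Top2a had a signal of 3329.7 in the syngeneic group, 5277 and 4870.0 with isotype antibody, 6016 and 5070.1 with anti-ICOSL from day 0, and 6046 and 5548 with anti-ICOSL from day 3. Both day 3 arrays were above both isotype arrays, and day 0 overlapped both. Top2a differed from the syngeneic array by 0.60 (log2) in isotype, 0.72 in day 0 and 0.79 in day 3 recipients, each ± 0.21 (SE), with limma adjusted p of 0.159, 0.0995 and 0.0786.

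Other genes of mitosis and its control were counted in 9 lists of 156 genes. Over all tested probe sets, 2.49% were called higher and 4.12% lower in isotype against syngeneic. Of 22 tested motors, spindle and cytokinesis proteins, 2 rose in isotype recipients and none fell (median 0.56). Cit and Depdc1a of this list did not pass and reached the filter in allogeneic groups alone. Cep55, which brings the abscission machinery to the midbody, had 433 on the syngeneic array and 2046 to 2332 on the 6 allogeneic arrays, a change of 2.26 (limma adjusted p = 0.00292), and Shcbp1, a midbody protein, changed by 1.48 (0.0131). Of 16 kinases, phosphatases and other genes of mitotic entry and exit, 2 rose and none fell (median 0.47). The 2 were Cdc25b, a phosphatase that activates Cdk1, by 1.49 (limma adjusted p = 0.0149) and Ccnf, neither kinase nor phosphatase, by 1.11 (0.041). Of 15 transcription factors of the mitotic programme, Foxm1 and Lin9 passed, both higher, and none fell (median 0.42). Foxm1, the forkhead factor of late cell-cycle genes, had 242 on the syngeneic array and 778 to 1109 on the 6 allogeneic arrays and changed by 1.89 (adjusted p = 0.00562), and Nfyb, a subunit of NF-Y, was at 1.05 without passing (0.106). Lin9, a MuvB subunit, was at 0.96 (0.0433) but reached the filter in the isotype group alone, the group where it was highest, so that its count supports no rise.

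The counts of the other lists are also those of isotype against syngeneic, to be set beside the same 2.49% called higher and 4.12% called lower. A count of 1 in a list is read as a result about that gene alone. Of 13 subunits and regulators of the anaphase-promoting complex 7 were higher and 6 lower (median 0.17), and Ube2s, its chain-elongating enzyme, alone rose, by 1.31 (limma adjusted p = 0.0222), with Cdc27 at 0.89 not passing. Of 10 cohesin genes 1 rose (median 0.24), the cohesin subunit Rad21 by 1.07 (0.0458), with Sgo1 at 0.83 not passing there. Sgo1, the protector of centromeric cohesin, rose in day 0 (1.22, 0.0253) and in day 3 recipients (1.05, 0.0409), and Cdca5 (sororin) in day 3 recipients (0.93, 0.0383). Of 17 other kinetochore genes none passed (median 0.35), the largest being Ska2 at 0.89 and Ska1 at 0.87. Ska1 reached the filter in the allogeneic groups alone, where it was higher, so that its change supports no rise. Both tested condensin II genes did not pass, with Ncapg2 at -1.02 and Ncaph2 at 0.24. Of 12 tested brakes of the cell cycle none passed (median 0.09), with Cdkn2d at 0.80 and Rbl2 at -0.75. Of 8 cyclins and kinases that act before mitosis 1 fell (median 0.36), the G1 cyclin Ccnd1 by -1.49 (0.0232), and Ccne1, the cyclin of S phase entry, was at 0.81 without passing. In day 0 and day 3 against syngeneic, 3 and 4 of the motors, spindle and cytokinesis proteins rose. So did 3 and 2 of the genes of mitotic entry and exit, 2 and 3 of the cohesin genes, and Foxm1 and Ube2s alone of their lists in both. No other gene of the lists passed there, and none fell, while 2.8% and 2.89% of all tested probe sets were called higher. No gene of the 9 lists passed in a comparison between allogeneic groups.

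Markers of cell types that a spleen can hold, and of the exocrine pancreas, which is no part of a spleen, also differed between the syngeneic and the allogeneic arrays. Where the pancreas signal came from was not tested. In bulk RNA, fewer cells of a type and less RNA per cell cannot be told apart. Of all tested probe sets, 2.49% were called higher and 4.12% lower in isotype recipients. A count of 1 in a list is thus read as a result about that gene alone. T cell markers summed to 31644 on the syngeneic array and 41984 to 52208 on the allogeneic arrays, and 4 of 11 rose and none fell in isotype recipients. Macrophage markers summed to 64941 and 8380 to 14197, and 12 of 12 fell. Erythroid markers summed to 30578 and 9571 to 14363, and 8 of 13 fell. Neutrophil and precursor markers summed to 42219 and 11114 to 15272, and 9 of 10 fell. B cell markers summed to 25149 and 11150 to 16874 (1 of 7 fell), plasma cell markers to 131973 and 65133 to 85924 (1 of 6 rose and 1 fell), natural killer cell markers to 2402 and 1792 to 2256 (1 of 4 fell, Klra7), and exocrine pancreas markers to 6888 and 1413 to 3839 (2 of 11 fell). Megakaryocyte markers summed to 878 and 769 to 1204, and general leukocyte markers to 57872 and 45288 to 53802, with none passing in either list in isotype recipients. Among the markers that fell in isotype recipients, Klra7 and the macrophage marker Cd163 reached the filter on the syngeneic array alone. No marker of any list was at 0 on any array. The part of these shifts in the higher mitosis genes was not tested.

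Whether blocking ICOSL changed the mitosis and spindle genes is asked by the comparisons of day 0 and day 3 with isotype. No gene passed in either, nor in day 0 against day 3, with limma (0.0% of all tested probe sets passed in each), and at an unadjusted p under 0.05 there were 2, 1 and 0 of 44, against 7.18%, 10.2% and 6.79% of all tested probe sets. The median change was 0.07 in day 0 against isotype (28 higher and 16 lower, with 0.02 and 52.7% higher over all tested probe sets), 0.06 in day 3 against isotype (29 higher and 15 lower, with 0.03 and 54.3% over all) and 0.01 in day 0 against day 3 (23 higher and 21 lower, with -0.01 and 47.8% over all). The day 3 median turned to -0.04 when each array was centred on its median. Both anti-ICOSL comparisons use the same isotype arrays. The 95% intervals of the changes had a median distance from the estimate to either bound of 0.45 on the log2 scale (1.37-fold), and 42, 42 and 43 of the 44 intervals lay within 2-fold in either direction. A change of 2-fold or more thus lay outside the interval of nearly all members. These intervals cover the spread between arrays of combined RNA alone, so they set no bound on differences between mice.

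**Figure D5:**
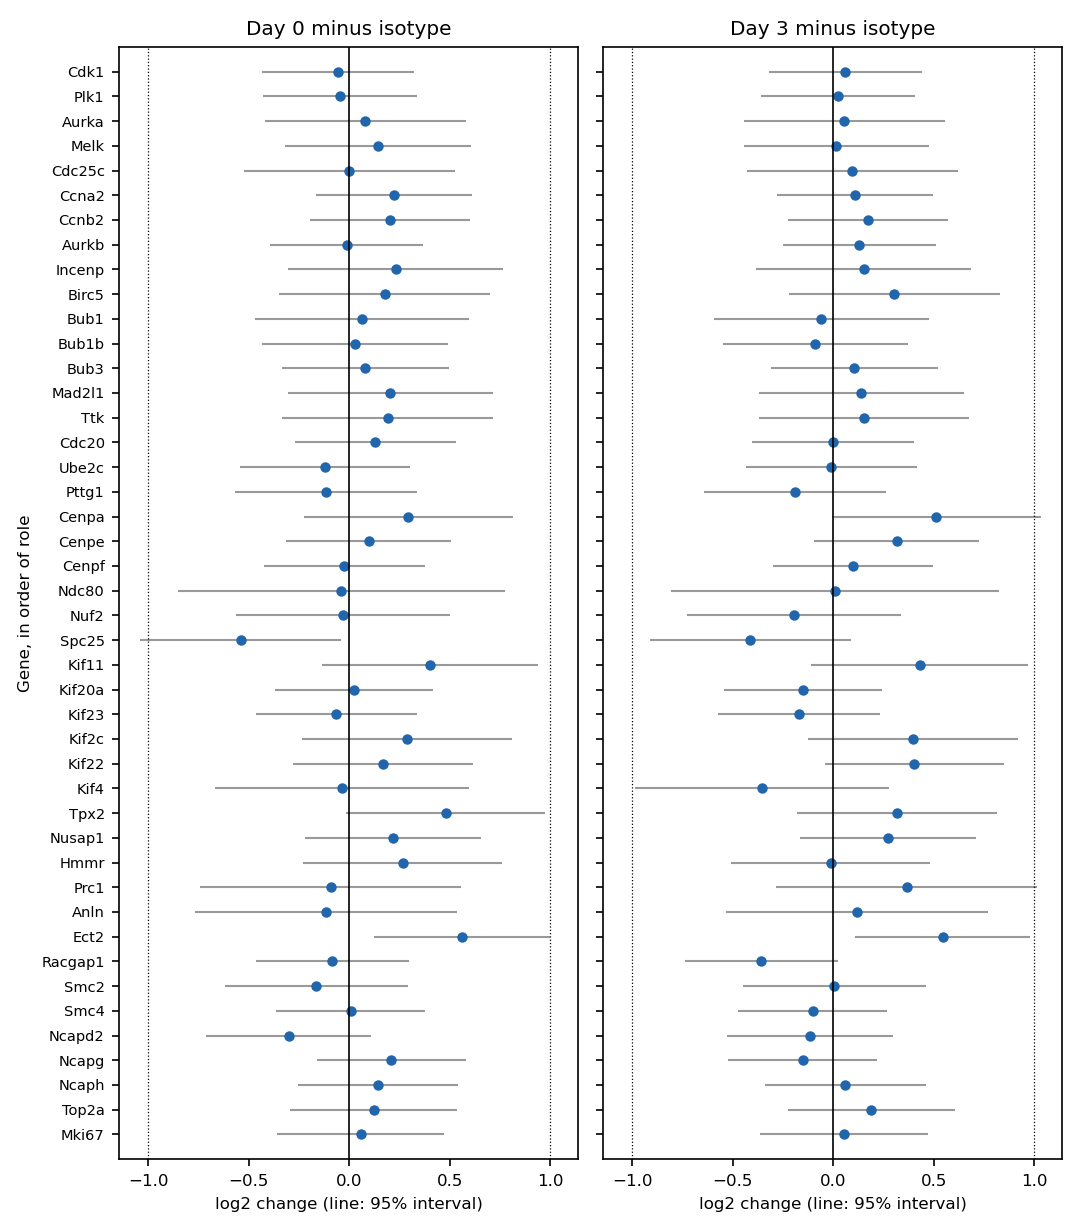
Log2 change of 44 mitosis and spindle genes (rows, by role) in day 0 recipients (left) and day 3 recipients (right) against isotype, 2 arrays a group, with 95% intervals of the limma fit as lines and dotted lines at a 2-fold change. No gene passed the adjusted test, and 42 of 44 intervals in each panel lie between the dotted lines. The intervals cover array-to-array spread of combined RNA alone.

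The widest difference between anti-ICOSL and isotype recipients was that of Ect2, whose values on each array are given with the cytokinesis genes. Ect2 differed by 0.56 ± 0.18 (SE, 95% interval 0.13 to 1.00) in day 0 and by 0.55 ± 0.18 (interval 0.11 to 0.98) in day 3 recipients, with unadjusted p of 0.0194 and 0.022 and limma adjusted p of 0.617 and 0.428. Spc25, the kinetochore subunit, was the furthest below isotype, at -0.54 ± 0.21 in day 0 (unadjusted p = 0.0384, limma adjusted p = 0.68) and -0.41 in day 3 recipients (adjusted p = 0.544). Its further probe set went the other way, at 0.37 and 0.24. Both genes have arrays of isotype and anti-ICOSL that do not overlap, and neither passed the adjusted test. Tpx2 and Kif11 were next in day 0 recipients, at 0.48 and 0.40 (adjusted p = 0.705 and 0.786), and Cenpa and Kif11 in day 3 recipients, at 0.51 and 0.43 (0.497 and 0.551). One further probe set of Kif11 was at -0.13 and -0.22, below isotype, and the other at 0.38 and 0.07. No role had a median past 0.30 in either direction in these comparisons.

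Arrays of day 0 and isotype did not overlap for 10 members that were higher (22.7%, against 19.4% of all tested probe sets) and 2 that were lower (4.55%, against 16.2%). For day 3 and isotype the numbers were 16 higher (36.4%, against 24.3%) and 6 lower (13.6%, against 18.8%). Racgap1 was among the lower ones in day 3 recipients, at -0.36 ± 0.16 (95% interval -0.74 to 0.02, limma adjusted p = 0.51), while its further probe set was at 0.09. Between the starts of treatment, 9 members were higher (20.5%, against 18.6%) and 8 lower (18.2%, against 20.4%) in day 0 without overlap. The members with the largest changes in day 0 against day 3 were Prc1 at -0.46, Ncapg at 0.36, Kif4 at 0.32 and Hmmr at 0.28, with limma adjusted p of 0.802, 0.735, 0.855 and 0.849. The sign was not shared by the further probe sets of Prc1 (0.35) and Ncapg (-0.18) or by 1 of the 3 of Hmmr (-0.15).

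The arrays of a group were close for these genes. The median absolute difference between both arrays of a group was 0.18 for isotype, 0.14 for day 0 and 0.13 for day 3 on the log2 scale, against 0.24, 0.22 and 0.19 over all tested probe sets. The widest gaps were those of Ndc80 between the isotype arrays (0.91), of Anln between the day 0 arrays (0.79) and of Birc5 between the day 3 arrays (0.53), and 0 of 44 members differed 2-fold within a group on the scale of log2(signal + 50), although the deposited signals of Ndc80, 449 and 215, did. A further measure of a member is its further probe sets, of which 29 of 19 genes were tested. In isotype against syngeneic 26 of 29 had the sign of the counted probe set, the exceptions belonging to Bub3 and Smc4, whereas in day 0 and day 3 against isotype 17 and 14 of 29 did. The exceptions belonged to Aurkb, Bub3, Ccna2, Incenp, Kif11, Kif2c, Ncapg, Nusap1, Prc1, Pttg1 and Spc25 in day 0, and to Bub3, Ccna2, Cdc20, Hmmr, Incenp, Kif11, Kif22, Kif2c, Ncapg, Prc1, Racgap1, Smc4, Spc25 and Tpx2 in day 3 recipients. Against the syngeneic array 4, 6 and 7 of the 29 passed in isotype, day 0 and day 3 recipients.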

How the data were processed

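Spleen RNA from 4 groups of mice was measured on 7 Affymetrix arrays, 10 µg being labelled for each. The authors deposited a linear signal intensity for each probe set, made with MAS5 per the submitters' processing notes, with no version given. MAS5 brings all arrays to the same trimmed mean, and no further scaling was applied. Of 22690 probe sets, 64 controls were left out, 20380 of the rest have 1 gene symbol, 691 several and 1555 none, and 0 symbols needed an update through 20351 matched gene IDs. Signals were analysed as log2(signal + 50) with limma 3.58.1 in R 4.3.3, in 1 fit over all 7 arrays (3 residual and 3.36 prior degrees of freedom), which assumes that the lone syngeneic array varies like the others. P-values are two-sided and adjusted over the 15372 tested probe sets of each of 6 comparisons. The number of arrays limits the precision. The procedure was tested on simulated data.

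Members, the 9 lists of other genes and the 10 marker lists were chosen with earlier results of these data known. With every array were given, in each role, the 2 members with the largest change in isotype against syngeneic, every member called, and the 4 largest changes between allogeneic groups; of each other list the 2 largest were named, and Aurka, Melk and other members by range. Further probe sets of called members or that passed, and Lin9, Sgo1 and Cdca5, were named after their values were seen. Alternatives were pseudocounts of 16 and 100, no filter or the 60th percentile, quantile normalization, median centring, trend and robust options, the compared groups alone, a replicate block and leaving out each allogeneic array. A planned search of the protein sequences was not run.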

Additional observations from a re-analysis of the deposited data

Results flagged for a closer look

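Ncapg, the condensin I subunit, had changes of opposite sign under the 2 schedules of anti-ICOSL, by 0.21 in day 0 and by -0.15 in day 3 recipients against isotype, with both day 0 arrays above and both day 3 arrays below both isotype arrays. The direct comparison of day 0 with day 3 gave 0.36 ± 0.15 (SE, 95% interval -0.01 to 0.73, limma adjusted p = 0.735) and did not pass. The same pattern was seen in 1.21% of all tested probe sets and in 1 of 44 members (2.27%), and the opposite pattern in 1.39% and in 0 members. A further probe set of Ncapg was at -0.17 in day 0 and 0.01 in day 3 recipients against isotype, the other way round.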

How the results depend on the processing

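Every member called against the syngeneic array kept its direction under all 14 alternatives, but the number called depended on the setting. In isotype against syngeneic the count of 7 became 12 with a pseudocount of 100, 3 with no filter, 19 with a filter at the 60th percentile, 23 with trend and robust options and 1 in a fit to the compared groups alone, and 2 to 3 without 1 array. In day 0 against syngeneic 14 became 8 with a pseudocount of 16, 3 with no filter, 27 at the 60th percentile and 30 with trend and robust options, and 0 to 8 without 1 array. In day 3 against syngeneic 11 became 7 with a pseudocount of 16, 19 with 100, 3 with no filter, 25 at the 60th percentile, 7 with median centring, 29 with trend and robust options and 0 in the compared groups alone, and 0 to 6 without 1 array. Fewer or more probe sets in the adjustment change the filter's counts by construction, and leaving out arrays takes away residual degrees of freedom; for the other settings the cause was not tested. The calls were 7, 14 and 11 genes, and over 14 alternatives 40 of 98, 85 of 196 and 76 of 154 such single calls were lost. The median change was 0.66 with a pseudocount of 100, 0.85 with median centring and 0.71 to 0.82 without 1 array in isotype against syngeneic (0.76), 0.96 with a pseudocount of 16 and 0.84 to 0.92 without 1 array in day 0 (0.88), and 0.79 to 0.92 without 1 array in day 3 (0.87). Day 3 against isotype (0.06) reversed to -0.04 under median centring, and day 0 against day 3 (0.01) ran from -0.063 to 0.068 without 1 array, with -0.01 without the first day 0 array; the SD of such medians between replicate arrays was 0.055. The 3 comparisons between allogeneic groups called 0 members under all 15 alternatives. With the replicate number as a block over the 6 allogeneic arrays the counts were 0 and the medians 0.07, 0.06 and 0.01, and no call changed; replicate differences correlated at -0.012, 0.075 and 0.044 between groups, so the numbers were not taken to pair samples. With 1 syngeneic array, no array of that group could be left out, and its own spread is unknown.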
